A study of Homo sapiens with 8 samples.

Results

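Transcripts of 67 centrosome and centriole genes were followed in OVISE, an established human line derived from a clear cell carcinoma of the ovary, with and without the kinase gene SYK and with and without epidermal growth factor (EGF). The genes are the loci of the deposited table that map to a single symbol of the CEP, CETN, TUBG, TUBGCP or HAUS series, or to SASS6, CENPJ, STIL, PLK4, PCM1, PCNT, NIN, CNTROB or CDK5RAP2. They are 67 of the 27757 loci in the table. The rule uses names only, but it was set with earlier results of these data known. The 8 libraries are paired-end sequencing of total RNA in 4 groups of 2: SYK-WT untreated, SYK-WT with EGF at 50 ng/ml for 24 h, SYK-KO untreated, and SYK-KO with the same EGF dose and time. Per the labels' protocols the knockout was made with a Cas9 nickase and a pair of guides to an exon of SYK, puromycin selection and isolation of single cells. How many clones the SYK-KO libraries represent, and whether SYK-WT cells went through the same steps, is not given in the sources used here, so genotype and clone cannot be told apart. Whether replicates are separate cultures is not given either, and p-values then measure only the spread between these libraries.

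The centrosome is the main microtubule-organising centre of animal cells. It consists of a pair of centrioles inside a matrix of proteins that holds gamma-tubulin ring complexes, which start new microtubules. A daughter centriole is built once per cell cycle beside each old one: the kinase PLK4, placed there by CEP152 and CEP192, acts through STIL and the cartwheel protein SASS6, and CENPJ sets the length. The augmin complex of HAUS subunits carries gamma-tubulin onto existing spindle microtubules. The older centriole bears appendages that dock it to the membrane as the base of a primary cilium, and extra centrosomes are a familiar trait of carcinoma cells. SYK, a tyrosine kinase of the cytoplasm, is studied mostly in immune cells. EGF binds the receptor kinase EGFR.

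Values are FPKM, fragments scaled by transcript length and library size, as the authors deposited them, so levels of different genes are compared per length. A locus was tested when it had at least 1 FPKM in at least 2 libraries, which 60 of the 67 members and 12112 loci in all did. The 7 untested members were CEP126, CEP85L, CEP295NL, the testis gene CETN1, which is listed at 0 in every library, and the pseudogenes CEP170P1, CEP192P1 and CETN4P. Differences are on the log2(FPKM + 1) scale, which understates the change of low genes, with the standard error (SE) of limma. "Rose", "fell" and "called" mean a limma Benjamini-Hochberg adjusted p below 0.05 over all 12112 tested loci.

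SYK itself read 4.91 and 5.30 FPKM in SYK-WT, 3.88 and 3.62 in SYK-WT with EGF, 3.11 and 3.43 in SYK-KO, and 2.80 and 3.16 in SYK-KO with EGF. The SYK-KO libraries were lower at either condition. The log2 difference was -0.52 ± 0.0861 untreated (limma adjusted p = 0.00289) and -0.26 ± 0.0861 with EGF (limma adjusted p = 0.0436). The authors' deposited q-values for SYK were 0.00428 untreated and 0.2 with EGF, so only the untreated one was below 0.05. SYK was not at 0 in SYK-KO, and fragments over the whole gene do not check a change within 1 exon. Estimated depth was 22800000 to 26800000 fragments a library, an estimate that requires each FPKM column to have been scaled by its own fragment total. The median absolute log2 difference between the 2 replicates of a group was 0.0579 to 0.131 over the members and 0.0669 to 0.15 over all tested loci. It was largest in untreated SYK-WT in both sets. All 8 epithelial and clear cell carcinoma markers were tested (summed FPKM 6817 to 7620 in SYK-WT, 12751 to 13013 with EGF, 8772 to 9658 in SYK-KO, 13097 to 14416 with EGF), although 2 of them were lower in SYK-KO. NAPSA had means of 1.01 against 5.25 FPKM untreated, and CDH1 read 84.7 and 90.8 in SYK-WT, 61.9 and 61.4 with EGF, 38.0 and 44.5 in SYK-KO, and 30.7 and 35.6 in SYK-KO with EGF. The sums are mostly KRT8, KRT18 and KRT19. Of the haematopoietic markers 2 of 6 (CD68 and LAPTM5) were tested and PTPRC stayed below 1 FPKM. The sum over this list was 16.9 to 17.2 FPKM in SYK-WT, 36.7 to 40.1 with EGF, 18.9 to 19.7 in SYK-KO and 36.8 to 37.6 in SYK-KO with EGF, mostly CD68, and its part in the EGF results was not tested. None of the fibroblast or endothelial markers reached the minimum, and DCN and LUM are listed at 0.

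The promoters of 4 members carry, within 250 bases before the RefSeq start, all 3 short motifs searched, and are shown because 3 of these genes rose in SYK-KO and 1 did not. The motifs are those known from cell-cycle promoters: the CHR element (TTTGAA), the CCAAT box (CCAAT) and an E2F-type site (TTCCCGC), each searched on both strands independently of the others; none of the 3 lies within another. Sequences are from RefSeq on GRCh38.p14, 5′ to 3′ on the gene's strand, and capitals mark each match in either orientation.
CEP152, chr15:48811070-48811319, minus strand: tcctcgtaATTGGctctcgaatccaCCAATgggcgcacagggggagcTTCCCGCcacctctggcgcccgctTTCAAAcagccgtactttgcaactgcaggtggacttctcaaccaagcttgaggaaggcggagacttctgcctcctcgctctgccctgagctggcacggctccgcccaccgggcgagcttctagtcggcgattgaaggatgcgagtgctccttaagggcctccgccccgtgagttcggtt
CEP295, chr11:93661432-93661681, plus strand: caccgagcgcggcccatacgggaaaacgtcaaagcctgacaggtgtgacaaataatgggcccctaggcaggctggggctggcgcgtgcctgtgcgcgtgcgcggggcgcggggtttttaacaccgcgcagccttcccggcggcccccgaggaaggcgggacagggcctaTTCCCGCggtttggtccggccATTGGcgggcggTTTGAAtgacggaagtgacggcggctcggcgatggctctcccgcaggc
CEP55, chr10:93496362-93496611, plus strand: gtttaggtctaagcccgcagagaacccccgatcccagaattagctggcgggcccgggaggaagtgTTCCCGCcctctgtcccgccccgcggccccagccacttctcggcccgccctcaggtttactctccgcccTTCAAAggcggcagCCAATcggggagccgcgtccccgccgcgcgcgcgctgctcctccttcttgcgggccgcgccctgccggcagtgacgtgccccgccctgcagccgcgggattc
CEP192, chr18:12991112-12991361, plus strand: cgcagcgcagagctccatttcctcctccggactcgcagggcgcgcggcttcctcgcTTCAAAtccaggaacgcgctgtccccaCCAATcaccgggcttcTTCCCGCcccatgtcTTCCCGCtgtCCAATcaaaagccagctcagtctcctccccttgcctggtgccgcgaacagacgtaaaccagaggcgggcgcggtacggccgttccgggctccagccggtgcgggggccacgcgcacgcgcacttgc
Of the 67 members 55 matched the RefSeq promoter table. The CHR letters occurred in 8 of these 55 promoters (14.5%) against 13.6% of all 27305 promoters of the same length, the CCAAT box in 24 (43.6%) against 33.0%, and the E2F-type site in 11 (20.0%) against 5.59%. The 8 with CHR letters are CEP152, CEP192, CEP290, CEP295, CEP55, CEP57, CEP89 and HAUS8. The 27305 promoters were not limited to loci tested here, and the shares over tested loci alone are not given. A match is a description of letters, not evidence of a bound factor.

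Most centrosome transcripts were scarce. The median over the 60 tested members of the mean over libraries was 5.03 FPKM, against 9.26 over all tested loci, and 44 of the 60 lay under 10. The highest means were those of CETN2, a centrin that also serves in DNA repair (67.3 FPKM), and TUBG1, the main gamma-tubulin (62.2), followed by CEP20 (42.8), CETN3 (26.8) and TUBGCP2, a core subunit of the gamma-tubulin ring (20.6). The lowest tested were CEP162 (0.978), the subdistal appendage protein CEP128 (1.09) and CEP135 (1.46), a centriole wall protein. The cartwheel gene and its partners were scarce as well: across the 8 libraries SASS6 ranged from 2.33 to 2.98, CENPJ from 1.61 to 2.12, and STIL, near the members' median, from 3.76 to 5.57 FPKM.

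**Figure D1:**
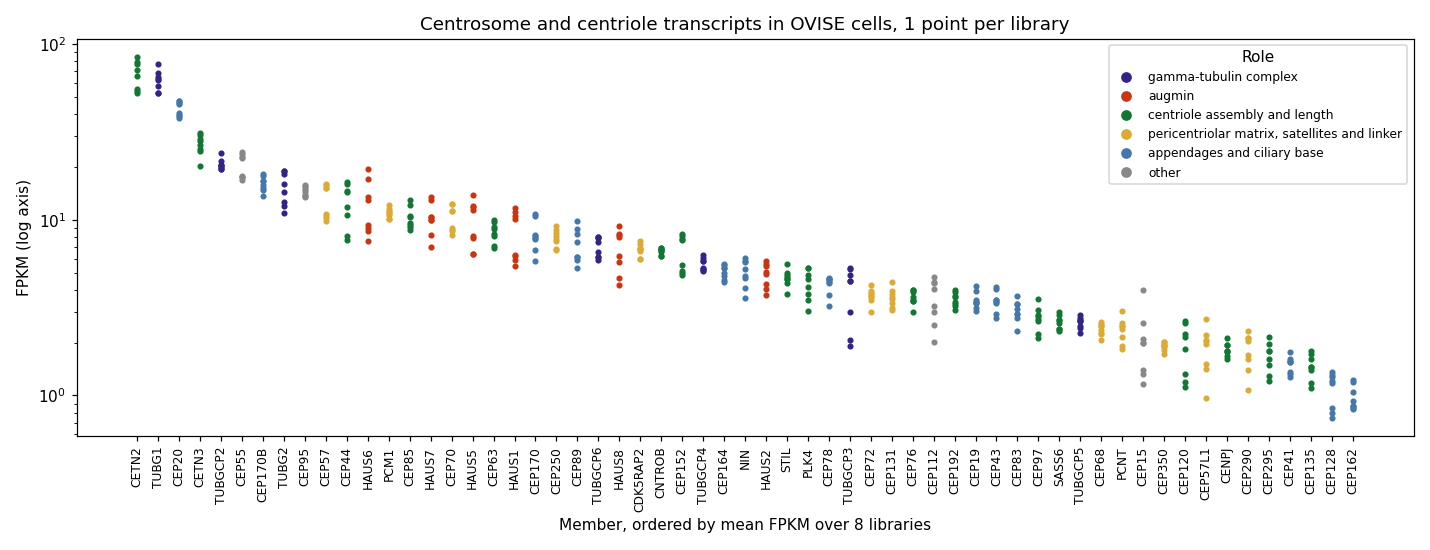
Level of tested members in every library (FPKM, log axis), ordered by mean level, with 1 point per library and colours for roles. CETN2 and TUBG1 stand at the top with means of 67.3 and 62.2 FPKM, and most members lie under 10 FPKM.

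The genotype comparison asks how SYK-KO cells differ from SYK-WT cells. Untreated, 18 members rose and 4 fell among 60, which is 36.7% called against a background of 40.5% of all tested loci. The background splits almost evenly into 20.3% up and 20.2% down, whereas the members split into 30% up and 6.67% down. With EGF, 27 members rose and 3 fell, which is 50% called against 43.6% of all loci, 45% up and 5% down against 21.1% and 22.5%. The median log2 difference of the members was 0.07 untreated and 0.20 with EGF, and over all tested loci -0.01 and -0.02. In this bulk RNA fewer cells of a type and less RNA per cell cannot be told apart. A total of 20 members were called in both comparisons, 17 up and 3 down, which is 90.9% of the untreated calls and 66.7% of those with EGF. Over all tested loci the shares were 76.7% and 71.3%. The 2 comparisons share no library but share the fitted spread.

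The number of untreated calls was 11 without SYK-KO replicate 1 and 12 without SYK-KO replicate 2, against 22. With EGF it was 17 without SYK-WT EGF replicate 2, against 30, and lay between 20 and 32 without any other single library. Members called in all 14 alternative fits were CEP112, CEP152, CEP55, CEP57, HAUS1, HAUS5, HAUS6 and HAUS8 untreated, and 16 members with EGF: CEP120, CEP152, CEP170, CEP290, CEP44, CEP55, CEP57, CEP70, CEP89, HAUS1, HAUS5, HAUS6, HAUS8, PLK4, TUBG2 and TUBGCP3.

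**Figure D2:**
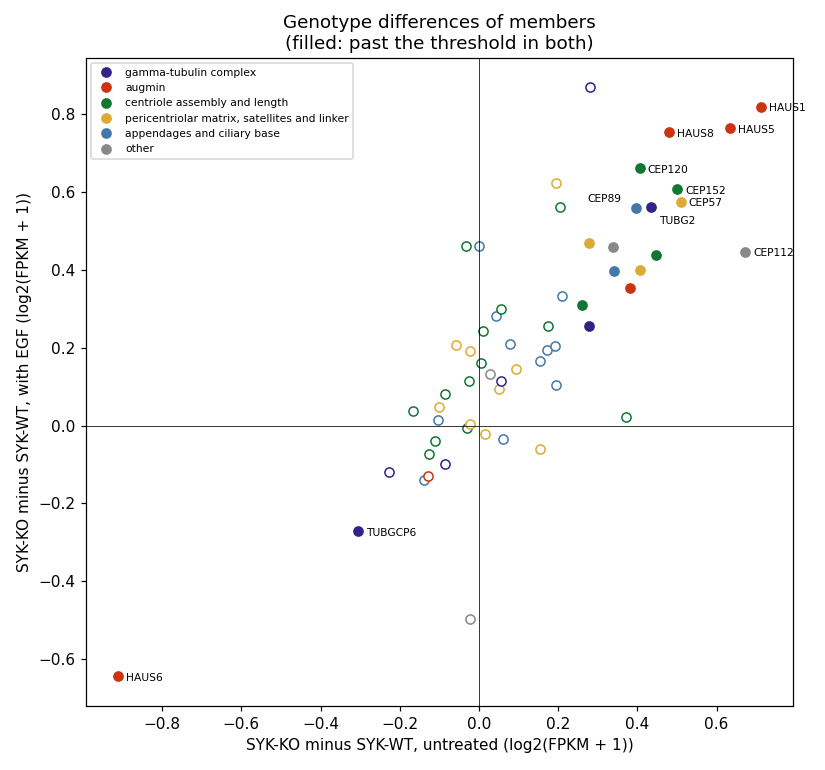
Log2 difference of SYK-KO minus SYK-WT for tested members, untreated (x axis) against with EGF (y axis), on the log2(FPKM + 1) scale, coloured by role. HAUS6 stands alone at the lower left at -0.91 and -0.64, and HAUS1, HAUS5 and HAUS8 lie at the upper right between 0.48 and 0.82.

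The augmin subunits differed in direction among themselves. Of the 6 tested subunits 4 rose and 1 fell in both genotype comparisons. Among all tested loci 20.3% rose and 20.2% fell untreated, and 21.1% and 22.5% with EGF. HAUS6, the subunit that binds the gamma-tubulin ring adaptor NEDD1 (chr9:19053135-19102940 in hg19), read 16.9 and 19.4 FPKM in SYK-WT, 12.97 and 13.47 in SYK-WT with EGF, 8.99 and 9.33 in SYK-KO, and 7.59 and 8.62 in SYK-KO with EGF. All 4 SYK-KO libraries were lower than all 4 SYK-WT libraries. The interval also holds the small RNA SCARNA8. The log2 difference was -0.91 ± 0.088 (SE) untreated (limma adjusted p = 0.000263) and -0.64 ± 0.088 with EGF (limma adjusted p = 0.00115), a mean FPKM at 0.505 and 0.613 of SYK-WT.

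The other called augmin subunits went the opposite way. HAUS1 (chr18:43684298-43708299 in hg19) read 6.19 and 6.29 FPKM in SYK-WT, 5.48 and 5.92 with EGF, 11.7 and 10.1 in SYK-KO, and 10.5 and 11.1 in SYK-KO with EGF, so its lowest SYK-KO library was well above its highest SYK-WT library. Its log2 difference was 0.71 ± 0.0851 untreated (limma adjusted p = 0.000685) and 0.82 ± 0.0851 with EGF (limma adjusted p = 0.000359). HAUS8, which tethers augmin to microtubules, read 5.74 and 6.18 in SYK-WT, 4.23 and 4.65 with EGF, 8.18 and 9.25 in SYK-KO, and 8.31 and 8.02 in SYK-KO with EGF. HAUS5 read 7.83 and 8.04 in SYK-WT, 6.40 and 6.36 with EGF, 13.77 and 12.03 in SYK-KO, and 11.3 and 11.7 in SYK-KO with EGF. For both the genotypes did not overlap at either condition, with log2 differences of 0.64 and 0.76 for HAUS5 and 0.48 and 0.75 for HAUS8, untreated and with EGF.

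HAUS7 rose by 0.38 ± 0.0828 untreated (limma adjusted p = 0.00878) and 0.35 ± 0.0828 with EGF (limma adjusted p = 0.011). Its untreated call ended without SYK-KO replicate 1 (adjusted p = 0.0654), and its call with EGF without SYK-WT EGF replicate 2 (0.0739) or SYK-KO EGF replicate 1 (0.0697). HAUS7 shares its interval in the table with BGN, which is listed at 0 in every library, and strand is not given. Among other called members CEP290, CEP295, CEP63, NIN and TUBG1 also share an interval with another entry. HAUS2 differed by -0.13 in both comparisons and was not called. The remaining subunits sit at merged loci outside the 67: the locus of HAUS4 with MIR4707 differed by 0.65 in both comparisons (limma adjusted p = 0.00134 and 0.00127), and that of HAUS3 with POLN by 0.05 and 0.10 without a call.

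**Figure D3:**
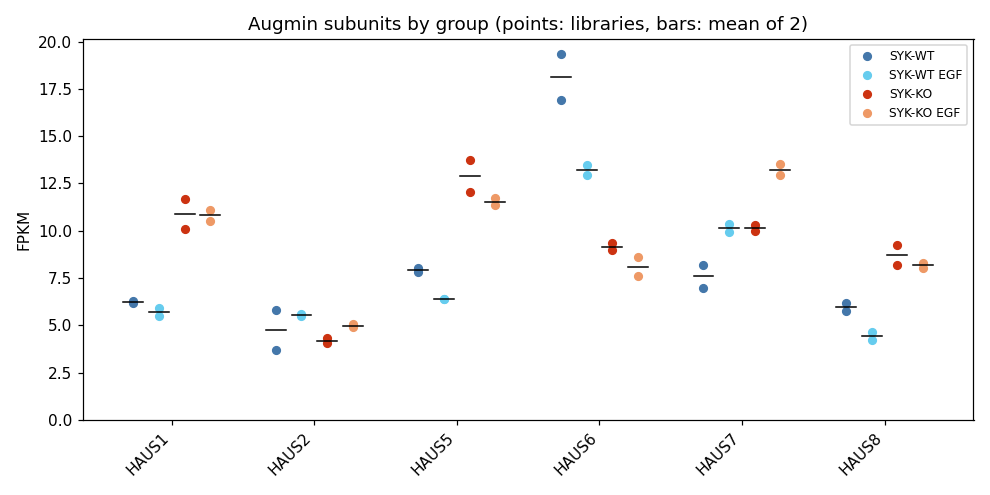
FPKM of the 6 tested augmin subunits in each library (points) with the mean of 2 (bars), by group. HAUS6 drops from 16.9 and 19.4 in SYK-WT to 8.99 and 9.33 in SYK-KO, while HAUS1, HAUS5 and HAUS8 are higher in SYK-KO.

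The gamma-tubulin genes and their ring subunits also went both ways, as did the tested loci as a whole. Untreated, 2 of 7 rose and 2 fell, beside 20.3% and 20.2% of all loci. With EGF 3 rose and 1 fell, beside 21.1% and 22.5%. TUBG2, the minor gamma-tubulin, read 12.03 and 12.62 FPKM in SYK-WT, 14.3 and 11.0 with EGF, 15.9 and 18.2 in SYK-KO, and 19.0 and 19.0 in SYK-KO with EGF. Its log2 difference was 0.44 ± 0.118 untreated (limma adjusted p = 0.0213) and 0.56 ± 0.118 with EGF (limma adjusted p = 0.00716). TUBG1 rose by 0.28 and 0.26. TUBG1 and TUBG2 are near-identical copies lying side by side, so reads could be split between them and both values are uncertain.

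TUBGCP3, a core ring subunit, read 2.98 and 5.27 FPKM in SYK-WT, 2.08 and 1.92 with EGF, 4.85 and 5.29 in SYK-KO, and 4.49 and 4.45 in SYK-KO with EGF. The untreated SYK-WT replicates lie far apart and overlap with SYK-KO, and only with EGF did the genotypes separate, by 0.87 ± 0.181 (limma adjusted p = 0.00696). TUBGCP6, a subunit of the full ring complex, fell by 0.31 untreated and by 0.27 with EGF, and TUBGCP4 fell by 0.23 untreated. TUBGCP2 and TUBGCP5 were called in no comparison. Leaving out single libraries ended several of these calls: untreated, TUBG1 and TUBGCP6 without either SYK-KO replicate (adjusted p 0.0581 to 0.132), TUBG2 without SYK-KO replicate 2 (0.133), and TUBGCP4 without SYK-WT replicate 1 or either SYK-WT EGF or either SYK-KO library (0.0509 to 0.152). With EGF, TUBG1 lost its call without either SYK-WT EGF or either untreated SYK-KO library or SYK-KO EGF replicate 1 (0.0501 to 0.177), and TUBGCP6 without either SYK-WT EGF library or SYK-KO EGF replicate 2 (0.0806 to 0.103).

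Of the 17 tested genes of centriole assembly and length 5 rose untreated and 9 with EGF, none fell, and the others did not pass. The shares of all loci were 20.3% up and 20.2% down untreated, and 21.1% and 22.5% with EGF. The median differences of the 17 genes were 0.01 and 0.24. CEP152, the scaffold that recruits PLK4 (chr15:49030135-49103343 in hg19), read 5.49 and 4.87 FPKM in SYK-WT, 4.97 and 5.09 with EGF, 7.69 and 7.78 in SYK-KO, and 8.07 and 8.29 in SYK-KO with EGF. Every SYK-KO library was above every SYK-WT library, and EGF gave no call in either genotype. The genotypes had log2 differences of 0.50 ± 0.0746 untreated (limma adjusted p = 0.00173) and 0.61 ± 0.0746 with EGF (limma adjusted p = 0.000714). CEP192, the scaffold with which CEP152 shares the task and whose promoter also holds the 3 motifs, read 3.40 and 3.99 in SYK-WT and 3.05 and 3.63 in SYK-KO, values that overlap.

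PLK4, the kinase that starts duplication, read 3.79 and 4.11 FPKM in SYK-WT, 3.50 and 3.03 with EGF, 4.82 and 4.58 in SYK-KO, and 5.28 and 5.28 in SYK-KO with EGF. The genotypes did not overlap, but only with EGF did the difference pass, at 0.56 ± 0.0832 (limma adjusted p = 0.00165) against 0.20 untreated (limma adjusted p = 0.0848). STIL rose by 0.30 with EGF (limma adjusted p = 0.0298). SASS6 differed by -0.09 and 0.08 and CENPJ by -0.03 and 0.12 untreated and with EGF, none called. With EGF, PLK4, CEP152 and STIL thus passed the test and SASS6 and CENPJ did not.

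The elongation factor CEP120 read 1.32 and 1.83 FPKM in SYK-WT, 1.19 and 1.12 with EGF, 2.15 and 2.67 in SYK-KO, and 2.25 and 2.57 in SYK-KO with EGF. It rose by 0.41 untreated (limma adjusted p = 0.0308) and 0.66 with EGF (limma adjusted p = 0.00413). CEP295, needed to turn a new centriole into a centrosome, rose by 0.26 and 0.31, and the centrin CETN2 by 0.45 and 0.44, with 54.2 and 65.7 FPKM in SYK-WT against 84.3 and 79.1 in SYK-KO. CETN3 rose untreated by 0.37, and with EGF CEP44 rose by 0.46, CEP63 by 0.26 and CEP85 by 0.24.

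Several of these smaller calls ended when a single library was left out. Where that library belonged to a group outside the comparison, the difference itself did not change. Untreated, CEP120 lost its call without SYK-WT replicate 1, either SYK-WT EGF library or SYK-KO replicate 2 (adjusted p 0.0524 to 0.182), CEP295 without any library except SYK-WT replicate 2 (0.0553 to 0.184), CETN3 without SYK-WT replicate 2, either SYK-WT EGF or either SYK-KO library (0.0605 to 0.18), and CETN2 without SYK-KO replicate 1 (0.0639). With EGF, CEP295 lost it without any of the 4 EGF libraries (0.0588 to 0.099), CETN2 without SYK-WT EGF replicate 2 or SYK-KO EGF replicate 1 (0.0575 and 0.0617), CEP85 without any SYK-WT EGF, SYK-KO or SYK-KO EGF library (0.0539 to 0.142), CEP63 without either SYK-WT EGF, either SYK-KO library or SYK-KO EGF replicate 2 (0.0564 to 0.169), and STIL without SYK-WT EGF replicate 2, either SYK-KO library or SYK-KO EGF replicate 1 (0.0538 to 0.185).

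**Figure D4:**
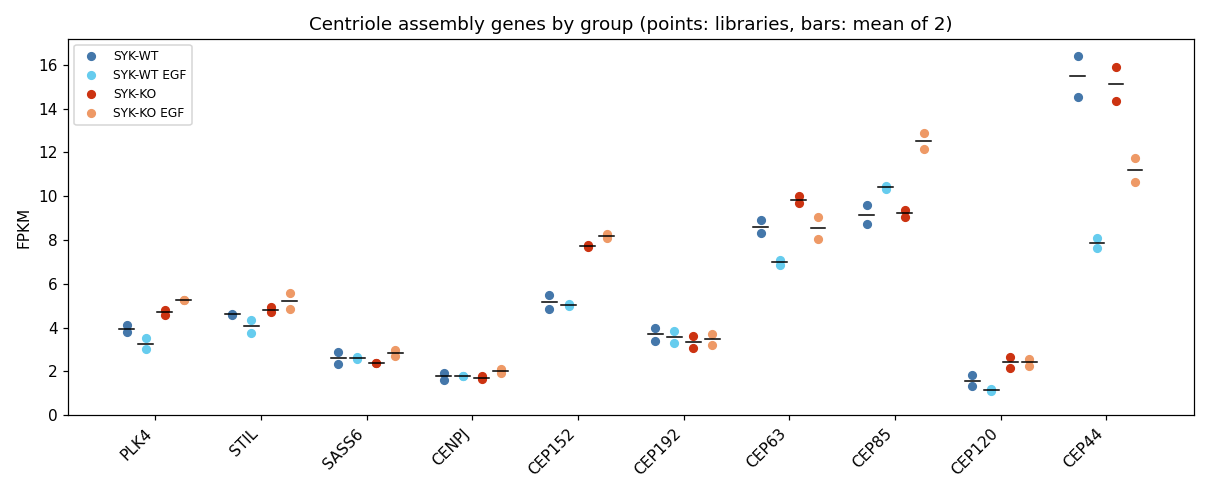
FPKM of centriole assembly members in each library (points) with the mean of 2 (bars), by group. CEP152 and PLK4 are higher in both SYK-KO groups, CEP192 overlaps between genotypes, and CEP44 drops with EGF.

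In the pericentriolar matrix, satellites and linker 3 of 12 members rose untreated and 4 with EGF, and none fell. Beside this, 20.3% of all loci rose and 20.2% fell untreated, and 21.1% and 22.5% with EGF. CEP57, which anchors pericentrin around the centriole, read 10.8 and 10.4 FPKM in SYK-WT, 10.2 and 9.85 with EGF, 15.1 and 15.9 in SYK-KO, and 15.7 and 15.1 in SYK-KO with EGF. The 2 genotypes formed tight separate sets, 0.51 ± 0.0654 apart untreated (limma adjusted p = 0.000932) and 0.58 ± 0.0654 with EGF (limma adjusted p = 0.000518). Its relative CEP57L1 rose with EGF by 0.62, CEP70 rose by 0.41 and 0.40, and CEP290, a gatekeeper of the ciliary base, by 0.28 and 0.47. The main matrix and satellite scaffolds were not called in either genotype comparison: PCNT differed by -0.06 and 0.21, CDK5RAP2 by 0.09 and 0.15, and PCM1 by -0.02 and 0.00. In alternative fits the untreated call of CEP290 ended with a pseudocount of 0.1 (limma adjusted p = 0.0617) or no filter on low values (0.0748). It also ended with only the 2 groups of the contrast (0.0818), library quality weights (0.159) or the replicate number as a block (0.0554). The untreated call of CEP290 ended too without any library except the SYK-WT EGF pair. That of CEP70 ended without SYK-KO replicate 2 (0.0527), and CEP57L1 lost its call with EGF without SYK-WT EGF replicate 2 (0.0689) or SYK-KO EGF replicate 1 (0.0683).

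Among genes of the appendages and ciliary base 2 of 14 rose and 1 fell untreated, and 5 rose and 1 fell with EGF. For all loci these shares were 20.3% and 20.2% untreated, and 21.1% and 22.5% with EGF. CEP89, a distal appendage protein, read 5.30 and 6.17 FPKM in SYK-WT, 5.92 and 6.09 with EGF, 8.30 and 7.42 in SYK-KO, and 8.87 and 9.81 in SYK-KO with EGF. All SYK-KO libraries exceeded all SYK-WT libraries, by 0.40 untreated and 0.56 with EGF on the log2 scale. CEP170, a subdistal appendage protein, rose by 0.34 and 0.40. NIN, which anchors microtubules there, differed by 0.00 untreated and rose by 0.46 with EGF, from 3.58 and 4.06 FPKM to 5.22 and 6.05, and with EGF CEP128 rose by 0.33 and CEP78 by 0.28. Untreated, the call of CEP89 ended without SYK-KO replicate 1 (adjusted p = 0.0979) and that of CEP170 without either SYK-KO library (0.0577 and 0.0717). With EGF, CEP128 lost it without any SYK-WT EGF, SYK-KO or SYK-KO EGF library (0.0551 to 0.132), CEP78 without SYK-WT EGF replicate 2 or either SYK-KO EGF library (0.0796 to 0.159), and NIN without either SYK-WT EGF library or SYK-KO EGF replicate 2 (0.0514 to 0.117).

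Of the 4 tested members with other roles 2 rose in both comparisons, beside 20.3% of all loci untreated and 21.1% with EGF. CEP55, a midbody protein of cell abscission, read 17.8 and 17.5 FPKM in SYK-WT, 17.4 and 16.7 with EGF, 22.3 and 22.8 in SYK-KO, and 24.1 and 23.6 in SYK-KO with EGF. Replicates were close and the genotypes did not overlap, with differences of 0.34 ± 0.06 untreated (limma adjusted p = 0.00376) and 0.46 ± 0.06 with EGF (limma adjusted p = 0.000948). CEP112 rose by 0.67 and 0.45, the latter call ending without SYK-WT EGF replicate 1 (adjusted p = 0.0588) or SYK-KO EGF replicate 2 (0.0551).

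Beside the promoter letters shown for CEP152, CEP295, CEP55 and CEP192, CHR matches occurred in 7 of the 17 matched promoters of members that rose untreated (41.2%), in 1 of 33 not called (3.03%) and in none of 2 that fell. For the CCAAT box the counts were 10 of 17 (58.8%) and 13 of 33 (39.4%), and for the E2F-type site 4 of 17 (23.5%) and 7 of 33 (21.2%). With EGF, CHR matches occurred in 7 of 26 that rose (26.9%) and 1 of 24 not called (4.17%). The CCAAT box occurred in 12 of the 26 (46.2%) and 11 of the 24 (45.8%). For the E2F-type site these were 6 of 26 (23.1%) and 5 of 24 (20.8%). These are counts over few promoters and no test was made of them. The same split over all tested loci is not given here.

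The tested loci lying near some members differed in the same direction as the member. For the tested loci within 5 Mb of a member, the median genotype difference was at least 0.2 in size for 9 of the 22 members called untreated, all with the member's own sign, and for 13 of the 30 called with EGF, 12 with the same sign. Over all 60 tested members it was so for 16, 12 with the same sign, and for 19, 17 with the same sign. Over all tested loci the share was 17.7% untreated, 80.0% of these with the same sign. With EGF it was 19.7%, 78.4% of these with the same sign. Over all called loci the share was 22.8% untreated, 90.6% of these with the same sign, and 24.0% with EGF, 88.0% of these with the same sign. Untreated, the neighbours of HAUS8 had a median of 0.28 over 164 loci, those of HAUS5 0.25 over 143, those of HAUS1 0.22 over 26, those of HAUS7 0.29 over 56, and those of CEP89 0.32 over 95. With EGF the 13 neighbours of CEP44 had a median of 0.65, more than CEP44 itself. HAUS6 was different: its 17 neighbours had medians of 0.00 and -0.01 while it fell by 0.91 and by 0.64. CEP152, at 0.50 and 0.61, had 37 neighbours with medians of -0.14 and -0.20, and TUBG2 147 with -0.17 and -0.18. The part of regional differences in the members' values was not tested.

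**Figure D5:**
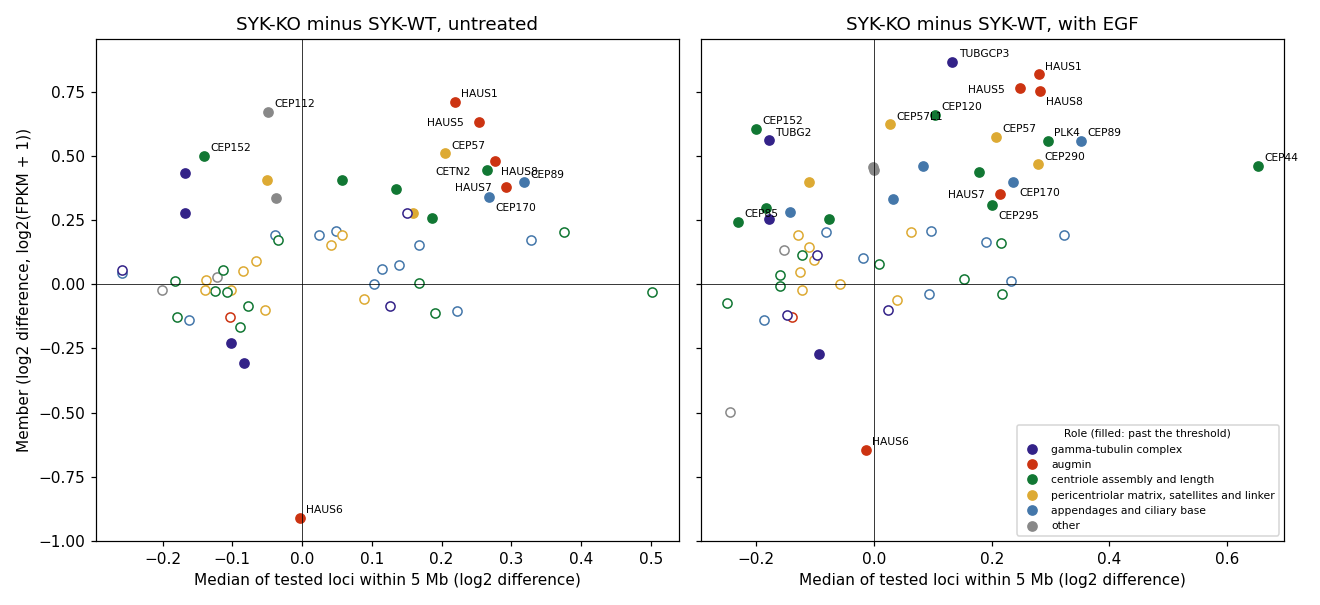
Log2 difference of SYK-KO minus SYK-WT for tested members (y axis) against the median of the tested loci within 5 Mb (x axis), untreated (left) and with EGF (right), coloured by role, filled where the member passed the threshold. HAUS6 sits at -0.91 over neighbours near 0, while HAUS1, HAUS5 and HAUS8 lie over neighbours between 0.22 and 0.28.

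Many proliferation genes also differed in the same genotype comparisons, though not all in 1 direction. Of 14 such genes 6 rose and 2 fell untreated and 12 rose and 1 fell with EGF, with medians of 0.17 and 0.56. All tested loci had 20.3% up and 20.2% down untreated, and 21.1% and 22.5% with EGF. The part of these genes in the members' differences was not tested. The cyclin gene CCNB1 differed by 0.49 and 0.56 and the mitotic transcription factor gene FOXM1 by 0.54 and 0.74. MCM2 went the other way, with the lowest differences of the list, -0.77 and -0.56. Untreated, it read 9.67 and 12.07 FPKM in SYK-WT and 5.74 and 6.10 in SYK-KO.

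The EGF comparison in SYK-WT cells asks what 24 h of EGF changed. Of 60 members 4 rose and 8 fell, 20% against 26.7% of all tested loci. The members' 6.67% up and 13.3% down stand beside 14.7% and 12.1% of all loci. The median log2 difference was -0.09 over the members and 0.01 over all loci. CEP44, a protein that helps new centrioles become centrosomes (chr4:175157810-175254531 in hg19), read 14.5 and 16.4 FPKM untreated and 8.08 and 7.62 with EGF, a mean at 0.507 of the untreated one with no overlap. The log2 difference was -0.89 ± 0.0895 (limma adjusted p = 0.000578), and CEP44 was the only member called in all 14 alternative fits. Its interval in the table is shared with FBXO8, which fell by 0.73 (limma adjusted p = 0.00287), and strand is not given.

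The other falls were in augmin, the ring and the matrix. HAUS6 fell by 0.43, HAUS8 by 0.36 and HAUS5 by 0.28, TUBGCP3 fell by 0.74, the matrix scaffold PCNT by 0.36 (2.39 and 3.01 FPKM to 1.91 and 1.84), CEP78 by 0.29 and CEP63 by 0.27. Rises were HAUS7 at 0.38 (8.19 and 6.97 to 10.3 and 9.91), CEP250, which links the centriole pair, at 0.34 (6.71 and 6.80 to 8.37 and 9.24), CEP112 at 0.33 and CEP170 at 0.29. Over the same contrast 10 of the 14 proliferation genes fell and none rose (all loci 12.1% down and 14.7% up), with a median of -0.42. All of these calls except that of CEP44 ended without SYK-WT EGF replicate 2 (adjusted p 0.0584 to 0.211), and all except those of CEP44 and CEP250 without SYK-WT EGF replicate 1 (0.0569 to 0.173). Those of CEP112, CEP170, CEP63, HAUS5 and PCNT also ended without SYK-WT replicate 2 (0.062 to 0.114), that of CEP78 without SYK-WT replicate 1 (0.052), those of CEP112, CEP170, CEP63, CEP78 and PCNT without either untreated SYK-KO library (0.062 to 0.0731), and those of CEP112, CEP170, CEP78, HAUS5 and PCNT without either SYK-KO EGF library (0.0503 to 0.0644). The number of calls, 12, was 21 without SYK-WT replicate 1, 7 without SYK-WT replicate 2 or any single SYK-KO or SYK-KO EGF library, 2 without SYK-WT EGF replicate 1 and 1 without SYK-WT EGF replicate 2.

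EGF in SYK-KO cells gave 4 calls among the 60 members, 6.67% against 11.8% of all loci, with 3 up (background 6.67%) and 1 down (background 5.13%). CEP85, an inhibitor of the linker kinase NEK2 that also acts with STIL, rose from 9.06 and 9.38 to 12.9 and 12.2 FPKM, by 0.40 ± 0.072 (limma adjusted p = 0.0116). HAUS7 rose by 0.35 and CEP170 by 0.35, from 8.19 and 8.10 to 10.5 and 10.7 FPKM. CEP44 fell by 0.40, from 14.3 and 15.9 to 10.6 and 11.8. CEP170, HAUS7 and CEP44 were called in both genotypes, 25% of the calls in SYK-WT and 75% of those in SYK-KO, in the same directions, against 37.5% and 84.9% over all tested loci. None of the 4 held in every alternative: all ended without any single SYK-KO or SYK-KO EGF library (adjusted p 0.0556 to 0.206), and CEP170, CEP44 and HAUS7 also without either SYK-WT EGF library (0.055 to 0.0674). The count was then 0 or 1.

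The test of the difference between the 2 EGF responses called no member, and 1 of all 12112 loci (0.00826%). At an unadjusted p below 0.05 there were 3 members (5.0%, against 8.83% of all loci), each with a response in SYK-KO that lay above that in SYK-WT: CEP44 by 0.49 ± 0.127 (limma adjusted p = 0.35), NIN by 0.46 ± 0.176 (adjusted 0.514) and PLK4 by 0.36 ± 0.118 (adjusted 0.465). The difference was above 0 for 47 of the 60 members, with a median of 0.11, and for 47.7% of all loci, with a median of -0.01. Without SYK-WT replicate 1, TUBGCP3 (0.92 ± 0.111, adjusted p = 0.01) and CEP44 (0.58 ± 0.116, adjusted p = 0.0315) passed. A change of EGF response with genotype is therefore not shown for any member by the fit on all 8 libraries.

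A total of 26 tested members passed in none of the comparisons. They include SASS6, CENPJ, CEP192, CEP135, CNTROB and CEP97 of centriole assembly, CDK5RAP2, PCM1, CEP131, CEP72, CEP68 and CEP350 of the matrix and satellites, and CEP164, CEP83, CEP19, CEP41, CEP162, CEP43, CEP20 and CEP170B of the appendages and ciliary base.

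Related genes outside the naming rule gave mixed pictures. Of 20 spindle pole and centrosome maturation genes 5 rose and none fell in SYK-KO untreated, and 9 rose and 1 fell with EGF. The centrosome-separating kinase NEK2 differed by 0.81 and 1.06, with mean FPKM of 13.1 in SYK-WT and 23.7 in SYK-KO untreated. WDR62, a spindle pole scaffold, differed by 0.60 and 0.85, and TACC3 by 0.34 and 0.83. Of 15 tested centriole and distal appendage genes 4 rose and 1 fell in each comparison, among the rises OFD1 (0.43 and 0.66), SCLT1 (0.52 and 0.62) and POC1A (0.33 and 0.67). Of the 8 tested satellite genes none rose and 2 fell untreated (PIBF1 and MIB1), and 1 rose and 2 fell with EGF. Over all tested loci 20.3% rose and 20.2% fell untreated, and 21.1% and 22.5% with EGF. The counts of these short lists were not tested against those shares. Only 4 of 10 genes of motile cilia were tested, of which 3 fell untreated and 2 with EGF.

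The authors' deposited table gives q-values for 3 of the comparisons. At a q below 0.05 it listed 5 members for EGF in SYK-WT, 4 of them also called here, the other being NIN. It listed 11 members for genotype untreated and 21 for genotype with EGF, all of them called here. The calls made here number 12 for EGF in SYK-WT, 22 for genotype untreated and 30 with EGF. The rest of them were thus not below 0.05 in the authors' q-values. Among these were CEP55 untreated (q = 0.117), and in both genotype comparisons TUBG1 (0.356 and 0.404) and HAUS7 (0.11 and 0.137). HAUS6, HAUS1, HAUS5, HAUS8, CEP152 and CEP57 were in the authors' deposited table below 0.05 in both genotype comparisons.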

How the data were processed

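Groups and replicate numbers came from sample titles. The authors deposited FPKM per locus and library; the submitters' processing notes name hg19, TopHat, Cufflinks and Cuffdiff (version 2.2.1.3), while parameters, library scaling and strand are not given in the sources at hand. For 3 comparisons the authors' deposited table also holds p-values and q-values, as its headers say; only q-values are used. Scaling of libraries to each other moves every FPKM value, and unstranded fragments could mix overlapping genes: 16 of the 67 members share an interval with another entry.

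Loci are named by transcript accessions; 27559 of 27757 (99.3%) got a symbol, 27222 from RefSeq, 337 from GENCODE only. The loci HAUS4/MIR4707 and HAUS3/POLN and the divergent transcripts CEP72-DT and CEP83-DT fell outside the rule. The values of 1 member are not reported here, in text or figures; counts over the members include it. Gene coordinates are hg19 and promoters GRCh38.p14; the 2 were not mixed. The members and gene lists were chosen with earlier results of these data known.

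FPKM are not counts, so log2(FPKM + 1) was fitted with limma 3.58.1 in R 4.3.3 (mean-variance trend, 1 mean per group, 4 groups sharing the spread, 4 residual degrees of freedom, prior 3.87) on the 12112 loci that reached 1 FPKM in 2 or more libraries. Tests were two-sided with Benjamini-Hochberg adjustment per contrast and a threshold of 0.05, and the script was tested on simulated data. Depth, 22800000 to 26800000 fragments, was estimated from the steps of low values. Named genes are the 8 largest rises and falls past the threshold in each contrast, the 5 highest and 3 lowest by level, core assembly and matrix genes, and up to 3 genes from each other list with the smallest adjusted p; further called members are given by their difference, and CCNB1, FOXM1 and FBXO8 were named after their values were seen. Alternatives were a pseudocount of 0.1, no filter, only the 2 groups of a contrast, a replicate block, equalised medians, library quality weights and each library left out. Tables and figures used python 3.11.15, pandas 2.3.3 and matplotlib 3.10.9.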

Additional observations from a re-analysis of the deposited data

How the results depend on the processing

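No called member changed direction in any alternative fit. Values without a call did: untreated genotype differences of 19 members changed sign in at least 1 alternative, none passing the test, among them HAUS2 (-0.13 to 0.14 without SYK-WT replicate 1) and NIN (0.00 to 0.14 without SYK-WT replicate 2). Calls moved with the choice of spread: with only the 2 groups of the contrast the member calls were 1 for EGF in SYK-WT and 14 for genotype untreated (all loci 1254 and 3007, and 2646 for EGF in SYK-KO). With library quality weights they were 4 for EGF in SYK-WT and 7 for EGF in SYK-KO (all loci 1877 and 3024, and 2 for the difference of responses). With no filter on low values they were 5 and 1 (2 loci for the difference). Leaving out 1 library at a time gave 1 to 21 members for EGF in SYK-WT (1255 to 5108 loci), 0 to 5 for EGF in SYK-KO (319 to 2984), 11 to 25 for genotype untreated (2460 to 5935), 17 to 32 for genotype with EGF (2952 to 6835), and 0 to 2 for the difference (0 to 867). Fewer libraries leave fewer degrees of freedom, and the cause of the other moves was not tested. Replicate numbers did not pair the libraries (correlations of deviations -0.381 to 0.27); with the replicate block the members called were 15, 5, 21, 31 and 0 in the order EGF in SYK-WT, EGF in SYK-KO, genotype untreated, genotype with EGF and difference, and the untreated call of CEP290 was lost. The number of libraries, 2 a group, limits the precision.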
